A study of Mus musculus with 2 samples.

Results

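Clu, Nupr1, Sult1a1, Gda and Trim47 are 5 of the 31053 genes in the matrix, and were chosen because they led the stem-like cells in these data, so their levels by gate are a description of the cells that picked them. The cells were LSK cells, the lineage-negative, Sca-1-positive, c-Kit-positive fraction of mouse bone marrow that holds stem cells and multipotent progenitors, from C57BL/6JRj mice, with 4 mice pooled per age. LSK_young came from mice of 3 to 5 months and LSK_old from mice of 22 to 28 months, with 1 library each, and transcripts were read together with antibody-derived tags (CITE-Seq) for CD150, CD48 and CLCA3A1, the last through an anti-PE antibody. The libraries differ in the deposited barcodes by the suffix 1 or 2, and neither the labels nor the study's text pairs a suffix with an age, so the suffixes are compared under those names. A difference between suffixes is one between 2 libraries, in which age, animals and library preparation cannot be told apart.

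In bone marrow, long-term hematopoietic stem cells carry high CD150 and low CD48, both members of the SLAM family of receptors, and CD48 appears as cells become progenitors. CD150-high stem cells are known as the fraction with a bias to platelets and myeloid cells, and they become more frequent with age. The 5 genes have unrelated products. Clu encodes clusterin, a secreted chaperone, and Nupr1 a small nuclear protein induced by stress. Sult1a1 encodes a cytosolic sulfotransferase of phenols, Gda guanine deaminase, which turns guanine into xanthine, and Trim47 an E3 ubiquitin ligase of the tripartite motif family.

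All 5 are protein-coding genes on different stretches of the GRCm38 genome (GENCODE M21). Clu lies on the plus strand at chr14:65968483-65981547. Nupr1 (chr7:126623249-126630861) and Sult1a1 (chr7:126672865-126676432) lie on the minus strand of chromosome 7, 42003 bases apart. Gda (chr19:21391307-21473445) and Trim47 (chr11:116105752-116127210) are also on the minus strand. Sult1a1 shares 61 bases with Sgf29 on the opposite strand, and Trim47 shares 5365 bases with Trim65 on its own strand, and how reads in those overlaps were assigned was not tested. Trim65 itself was at 21.8 UMIs per 1000000 UMIs of all genes (counts per 1000000, CPM) in the stem cell gate of suffix 1 and 22.4 CPM in that of suffix 2.

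Since the levels of Nupr1, Sult1a1, Gda and Trim47 moved together over the groups of cells described here, the 250 bases before RefSeq's start of each are shown, from its promoter table (GRCm38.p6), which matched 4 of the 5 genes and not Clu. These starts differ from the ends of the GENCODE spans given above, which take in several transcripts: the windows of Nupr1, Gda and Trim47 lie inside the span of their gene, and that of Sult1a1 overlaps the end of its span. Each is printed 5′ to 3′ on the gene's own minus strand, and capitals mark a match to 1 of 8 short motifs searched on both strands. The windows are chr7:126625471-126625720 for Nupr1, chr7:126676419-126676668 for Sult1a1, chr19:21472662-21472911 for Gda and chr11:116110236-116110485 for Trim47.
Nupr1: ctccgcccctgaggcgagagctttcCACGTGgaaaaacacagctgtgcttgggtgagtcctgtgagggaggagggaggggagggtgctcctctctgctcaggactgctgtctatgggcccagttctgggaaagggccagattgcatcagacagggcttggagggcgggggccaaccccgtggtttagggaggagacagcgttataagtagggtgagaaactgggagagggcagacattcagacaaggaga
Sult1a1: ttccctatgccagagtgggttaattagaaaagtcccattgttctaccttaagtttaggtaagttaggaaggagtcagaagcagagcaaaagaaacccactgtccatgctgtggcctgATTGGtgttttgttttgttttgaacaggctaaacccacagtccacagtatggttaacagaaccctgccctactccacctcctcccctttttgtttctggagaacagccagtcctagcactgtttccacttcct
Gda: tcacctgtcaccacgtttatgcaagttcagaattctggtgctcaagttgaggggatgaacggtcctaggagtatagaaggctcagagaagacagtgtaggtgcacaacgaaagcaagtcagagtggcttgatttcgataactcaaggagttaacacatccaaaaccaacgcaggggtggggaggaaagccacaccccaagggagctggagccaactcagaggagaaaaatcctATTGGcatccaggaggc
Trim47: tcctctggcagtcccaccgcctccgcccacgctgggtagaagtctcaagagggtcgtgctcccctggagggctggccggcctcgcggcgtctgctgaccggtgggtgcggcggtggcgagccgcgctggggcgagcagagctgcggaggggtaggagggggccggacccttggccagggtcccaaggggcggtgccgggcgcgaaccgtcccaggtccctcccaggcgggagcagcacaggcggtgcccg
The letters searched were GGAATG for TEAD factors, AGATAA for GATA factors, TGTGGT for RUNX factors, CGGAAG for ETS factors, CACGTG for the E-box, TGACGT for the CRE element, CCAAT for the box of that name and TATAAA for the TATA box. The E-box letters stood in the Nupr1 window, 225 to 220 bases before the start, and in 6.02% of the 32851 windows of the table. The CCAAT letters stood on the other strand in the Sult1a1 window, 133 to 129 bases before the start, and in the Gda window, 17 to 13 bases before it, and in 33.8% of all windows. No 2 matches overlapped, the Trim47 window held none of the 8, and the other 6 motifs, present in 6.47% to 14.0% of all windows, were in none of the 4. Trim47 had the window richest in G and C of the 4 (75.2% against 59.2% for Nupr1, 50.0% for Gda and 45.6% for Sult1a1, with a median of 52.4% over all windows). The CCAAT letters were the only ones of the 8 found in more than 1 of the windows.

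After cells with at least 10% mitochondrial UMIs or at most 1500 detected genes were left out, 1497 cells of suffix 1 and 2489 of suffix 2 had both transcripts and tags. The median depth of kept cells was 15023.5 UMIs in suffix 1 and 14766.5 in suffix 2, and the libraries shared 0 barcodes. Tags were split within each suffix, CD150 at its 75th and CD48 at its 25th percentile. The cutoffs were 40 CD150 tags and 224 CD48 tags per cell in suffix 1, against 407 and 42 in suffix 2. The CD150-high CD48-low gate then held 172 cells of suffix 1 and 383 of suffix 2. It was checked against 10 genes known from hematopoietic stem cells, whose summed level was 1.71 times that of the other cells in suffix 1 (95% interval 1.65 to 1.78) and 2.35 times in suffix 2 (2.29 to 2.40). The list set the gate less apart from its nearest gates. It was at 1510 CPM in the gate of suffix 1 and 1881 CPM in that of suffix 2. The CD150-low CD48-low gate had 1383 and 1550 CPM, the CD150-high CD48-high gate 1109 and 1587, and the CD150-low CD48-high gate 749 and 619. The Cd48 transcript was at 0.0112 of its level in other cells in suffix 1 and 0.0138 in suffix 2. Intervals here are exact and cover counting error only, since with 1 library per age there is no replicate and no test, and levels are CPM in the summed cells of a group.

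**Figure D1:**
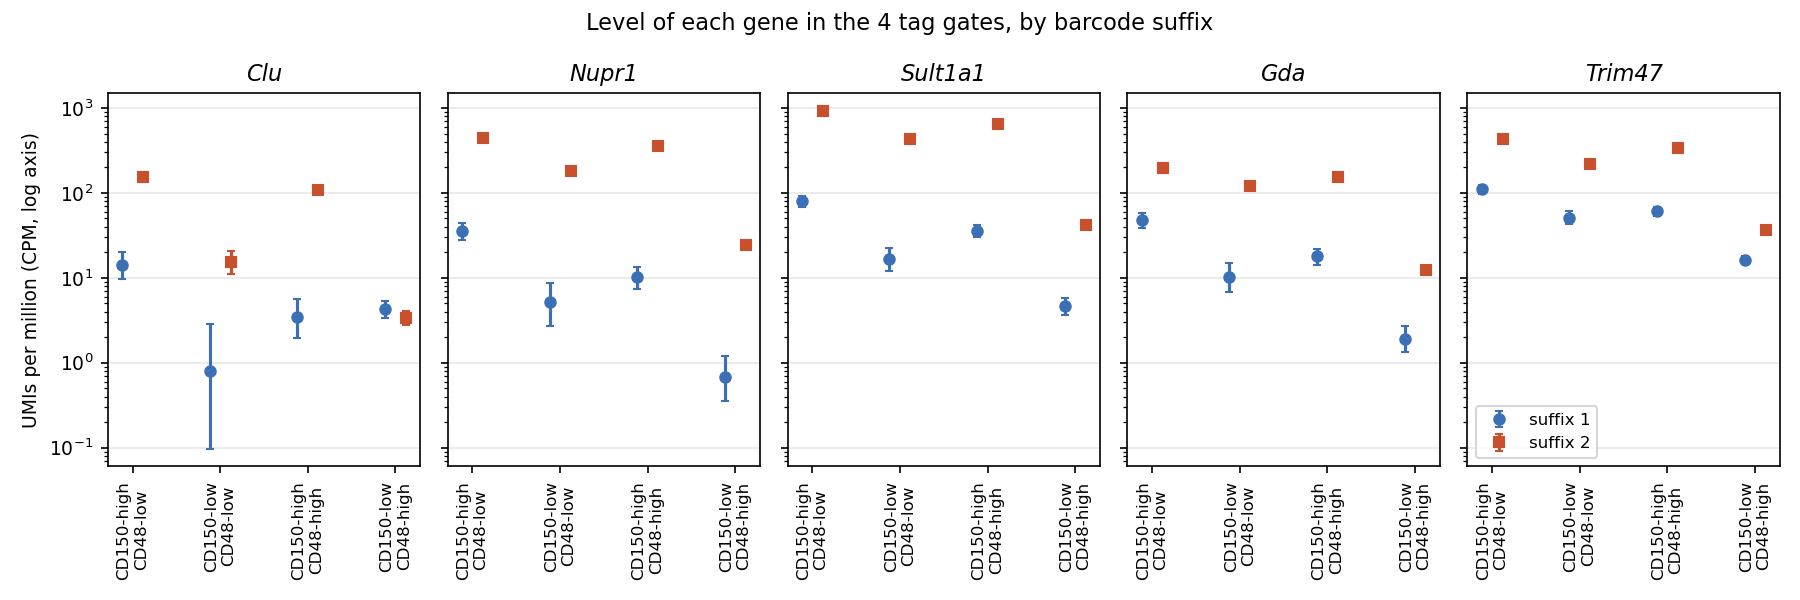
CPM (log axis) of each gene in the 4 tag gates, with suffix 1 as circles and suffix 2 as squares; bars are exact 95% Poisson intervals of the summed counts. In both suffixes each gene was highest in the CD150-high CD48-low gate, and Clu had like levels in the CD150-low CD48-high gate of both suffixes (4.25 and 3.37 CPM). Without Dntt cells these were 1.45 and 2.62 CPM, in the other order but with overlapping intervals.

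Each of the 5 genes was highest in the CD150-high CD48-low gate in each suffix, and each passed the rule for marking it (a ratio over the other cells whose interval lies above 2) in both. This rule was met by 1.82% of the 12375 genes tested in suffix 1, 4.91% of 13266 in suffix 2 and 1.37% in both, and since the genes were picked from these cells their count is not read against those shares. The ratios themselves differed in order between the suffixes. In suffix 1 Nupr1 had the highest ratio of the 5 and Clu and Trim47, whose intervals overlapped, the lowest, while in suffix 2 Clu had the highest and Gda and Trim47, again with overlapping intervals, the lowest.

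Clu, the secreted chaperone, was at 14.2 CPM in the CD150-high CD48-low gate of suffix 1 (32 UMIs in 21 of 172 cells), 4.25 in the CD150-low CD48-high, 3.44 in the CD150-high CD48-high and 0.792 in the CD150-low CD48-low gate, the last from 2 UMIs. The middle levels did not differ beyond counting error (ratio 0.809, 0.440 to 1.40). In suffix 2 it was at 153 CPM in the gate (807 UMIs), 109 in the CD150-high CD48-high, 15.3 in the CD150-low CD48-low and 3.37 in the CD150-low CD48-high gate. Clu therefore marked the gate in both suffixes, at 3.79 times the other cells in suffix 1 (2.45 to 5.72) and 9.24 times in suffix 2 (8.32 to 10.3). With CD150 and CD48 both split at the 50th percentile, its ratio in suffix 1 was 1.53 (1.03 to 2.25), and with tags as centred log ratios it was 2.36 (1.59 to 3.45), and it no longer passed under either. Gates with fewer cells of suffix 1 gave higher ratios of Clu there, 10.1 with CD150 at the 90th and CD48 at the 10th percentile, 10.6 with percentiles over both suffixes and 21.1 with the cutoffs of suffix 2. The ratio of Clu in suffix 2 was 7.02, 13.6 and 9.24 under the same settings, so the order of the suffixes turned under the first and the last.

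Of the 5 genes, Clu alone had a higher level in Dntt-positive cells of suffix 1 than in the cells outside the gate as a whole (3.75 CPM). These Dntt cells, with at least 3 UMIs of Dntt, the lymphoid polymerase terminal transferase, none of which lay in the gate, held Clu at 7.36 CPM in suffix 1 (379 cells) and 6.49 CPM in suffix 2 (334 cells). In suffix 1 they carried 64 of all 125 Clu UMIs. In the CD150-low CD48-high gate without them, Clu was at 1.45 CPM in suffix 1 and 2.62 CPM in suffix 2. Without Dntt cells, an alternative added after the data were seen, the gate ratio of Clu was 7.90 in suffix 1 (4.63 to 13.5) and 7.95 in suffix 2 (7.14 to 8.86). The interval of suffix 1 then held that of suffix 2, and the level in the gate was still 10.8 times higher in suffix 2.

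Nupr1, the stress-induced nuclear protein, was at 35.5 CPM in the gate of suffix 1 (80 UMIs), 10.1 in the CD150-high CD48-high, 5.15 in the CD150-low CD48-low and 0.680 in the CD150-low CD48-high gate. In suffix 2 the same order held at 446, 360, 180 and 24.1 CPM. Its gate ratio was 12.2 in suffix 1 (8.79 to 17.1) and 5.95 in suffix 2 (5.63 to 6.29). By lower bound Nupr1 was at rank 5 of 12375 genes in suffix 1 and 43 of 13266 in suffix 2. In suffix 1 Gda was at rank 11, Sult1a1 at 17, Trim47 at 61 and Clu at 129. In suffix 2 Clu was at rank 9, Sult1a1 at 31, Gda at 66 and Trim47 at 69. The ratio of Nupr1 was lower in suffix 2 while its levels in all 4 gates were higher there. The order of the ratios turned with both tags cut at the 50th percentile (14.7 in suffix 1 and 15.9 in suffix 2, with overlapping intervals) and with only cells under 5% mitochondrial UMIs and over 2500 genes (9.39 and 36.6).

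Sult1a1, the phenol sulfotransferase, was at 79.9 CPM in the gate of suffix 1 (180 UMIs), 35.9 in the CD150-high CD48-high, 16.6 in the CD150-low CD48-low and 4.65 in the CD150-low CD48-high gate. In suffix 2 it was at 909, 651, 430 and 42.3 CPM in the same order. Its gate ratios had overlapping intervals, 6.82 in suffix 1 (5.63 to 8.24) and 6.38 in suffix 2 (6.13 to 6.63). These intervals parted when the tags were cut elsewhere, with ratios of 10.7 in suffix 1 and 4.29 in suffix 2 with CD150 at the 90th and CD48 at the 10th percentile, and 7.45 and 14.5 with both at the 50th.

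Gda, guanine deaminase, was at 47.5 CPM in the gate of suffix 1 (107 UMIs), 17.8 in the CD150-high CD48-high, 10.3 in the CD150-low CD48-low and 1.93 in the CD150-low CD48-high gate. In suffix 2 it was at 197, 156, 119 and 12.5 CPM in the same order. The gate ratio was 8.25 in suffix 1 (6.36 to 10.7) and 5.28 in suffix 2 (4.87 to 5.72). With only cells under 5% mitochondrial UMIs and over 2500 genes the order turned (4.69 in suffix 1 and 25.3 in suffix 2), with overlapping intervals. With both tags cut at the 50th percentile the ratios were 13.4 and 12.1, again with overlapping intervals.

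Trim47, the ubiquitin ligase, was at 110 CPM in the gate of suffix 1 (248 UMIs), 60.4 in the CD150-high CD48-high, 51.1 in the CD150-low CD48-low and 16.2 in the CD150-low CD48-high gate. The 2 middle gates did not differ beyond counting error in suffix 1 (ratio 1.18, 0.957 to 1.47). In suffix 2 it was at 434, 339, 220 and 36.5 CPM in the same order. The gate ratio was 3.93 in suffix 1 (3.38 to 4.55) and 5.08 in suffix 2 (4.81 to 5.36). With only cells under 5% mitochondrial UMIs and over 2500 genes, which left 20 gate cells of suffix 1, the suffix 1 ratio was 9.39 for Nupr1 (2.16 to 40.8) and 5.75 for Trim47 (3.07 to 10.5), the intervals of Gda (1.03 to 17.5) and Sult1a1 (0.721 to 6.84) reached below 2, and Clu gave no ratio. In suffix 2 the same filter left 37 gate cells and raised all 5 ratios, to between 15.4 for Trim47 (11.5 to 20.8) and 36.6 for Nupr1 (24.8 to 55.7), with Clu at 29.5 (15.5 to 61.0), so that Clu no longer had the highest ratio. With CD150 and CD48 both split at the 50th percentile the ratios of suffix 2 were 8.72 (Trim47) to 16.2 (Clu).

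In suffix 2 the CD150-high gates lay close together: the CD150-high CD48-low gate exceeded the CD150-high CD48-high gate by 1.24 times for Nupr1 (1.16 to 1.32), 1.26 for Gda (1.15 to 1.39), 1.28 for Trim47 (1.20 to 1.37) and 1.40 for both Sult1a1 (1.33 to 1.46) and Clu (1.25 to 1.58). In suffix 1 the same ratios were larger, from 1.82 for Trim47 (1.53 to 2.17) to 4.13 for Clu (2.20 to 8.07). The gates were not alike between suffixes in their tags. CD150-high CD48-high cells had a median of 464 CD48 tags in suffix 1 and 78 in suffix 2, and CD150-low CD48-low cells a median of 4.5 CD150 tags in suffix 1 and 84.5 in suffix 2.

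**Figure D2:**
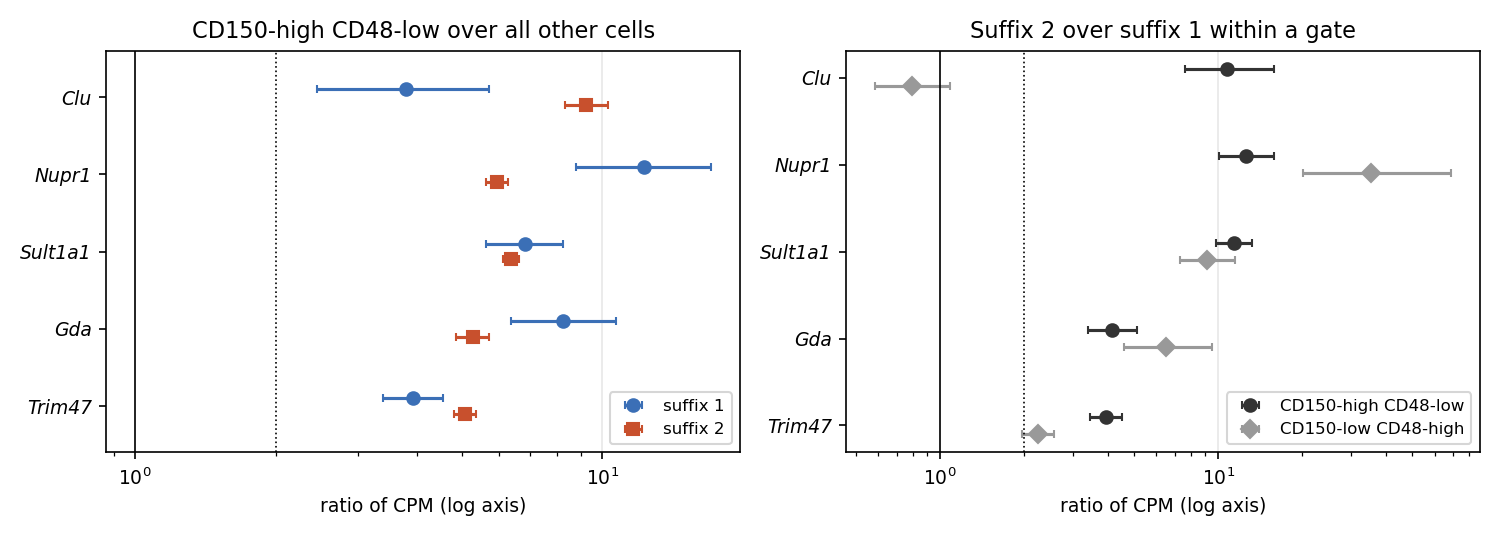
Ratios of CPM on log axes with exact 95% intervals. Left, the CD150-high CD48-low gate over all other cells in each suffix; right, suffix 2 over suffix 1 within the CD150-high CD48-low gate (circles) and the CD150-low CD48-high gate (diamonds); the dotted line marks a ratio of 2. All intervals on the left lie above 2, and on the right Clu is at 0.793 in the CD150-low CD48-high gate.

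Although all 5 marked the gate in both suffixes, all 5 were found mainly in suffix 2 by level. Within the CD150-high CD48-low gate, suffix 2 was 12.6 times suffix 1 for Nupr1 (10.1 to 15.9), 11.4 times for Sult1a1 (9.79 to 13.3), 10.8 times for Clu (7.58 to 15.9), 4.14 times for Gda (3.39 to 5.10) and 3.95 times for Trim47 (3.46 to 4.52). Each interval lay above 2, as it did for 1.18% of the 11076 genes tested in this gate, and 1.13% were above 2 the other way. The median ratio over all genes was 0.928. Nupr1, Sult1a1 and Clu thus formed a group whose intervals overlapped, and Gda and Trim47 a lower one.

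The summed level of the 10 stem cell genes in the gate was 1.25 times higher in suffix 2 (1.20 to 1.30), and that of Slamf1, which encodes CD150, 3.80 times (2.72 to 5.47). Other marker lists moved with the suffix in the gate too. The summed 6 cycling genes were at 0.121 of their suffix 1 level (0.0988 to 0.148), and 24.4% of gate cells in suffix 1 and 10.7% in suffix 2 had a UMI of at least 1 of 4 cycling genes (Mki67, Top2a, Ube2c and Birc5). The 6 plasma and B cell genes were at 7.10 CPM in the gate of suffix 1 and at 93.8 CPM in that of suffix 2. The 4 myeloid-primed genes were at 483 and 1007 CPM, the 5 megakaryocyte genes at 97.7 (Gp1bb at 0) and 64.2 CPM, the 5 erythroid genes at 7.99 and 9.30 CPM, and the 5 macrophage genes at 7.55 (Adgre1 and Csf1r at 0) and 0.190 CPM (1 UMI, with C1qa, C1qc, Adgre1 and Csf1r at 0). The 3 multipotent progenitor genes were at 216 and 43.9 CPM, the 4 lymphoid-primed genes at 23.5 and 23.9 CPM with Il7r and Rag1 at 0 in both, and the 4 endothelial genes at 79.9 (Cdh5 at 0) and 88.9 CPM. Without the cycling cells the suffix ratios in the gate were 3.70 (Trim47) to 12.8 (Nupr1), and the part of the other cell types in them was not tested. The gate ratios moved more without cycling cells. They were then 2.84 (Trim47) to 7.45 (Nupr1) in suffix 1, with Gda at 4.53, and 2.82 (Gda) to 5.88 (Clu) in suffix 2, with Trim47 at 2.90, Nupr1 at 3.29 and Sult1a1 at 3.38, and all 5 genes still passed in both. Cycling cells in the gate of suffix 2 held the 5 genes at 0.841 (Trim47) to 0.996 (Clu) of the level of the cells without a cycling UMI. In suffix 1 the same ratio ran from 0.373 for Clu (0.0952 to 1.07) to 1.05 for Nupr1 (0.620 to 1.74), with Trim47 at 0.710 (0.514 to 0.967).

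The size of the suffix ratio depended on where the tags were cut and on the cell filter. With tags as centred log ratios it was 18.0 for Nupr1, 16.4 for Clu, 14.0 for Sult1a1, 5.29 for Gda and 4.59 for Trim47. With only cells under 5% mitochondrial UMIs and over 2500 genes it was 29.3 for Sult1a1 (12.4 to 91.0), 19.7 for Nupr1 (8.28 to 61.6), 9.90 for Gda (3.68 to 37.4) and 4.86 for Trim47 (3.00 to 8.30), and Clu gave no ratio. Other cuts lowered it. With 1 set of percentiles over both suffixes, the gate held 33 cells of suffix 1 and 614 of suffix 2, and the ratios were 4.87 for Nupr1 (3.48 to 7.05), 4.06 for Sult1a1 (3.26 to 5.13), 3.09 for Trim47 (2.35 to 4.16), 3.03 for Clu (1.89 to 5.22) and 2.71 for Gda (1.86 to 4.13). The intervals of Clu and Gda then reached below 2, which left 3 genes mainly in suffix 2. With the tag counts of suffix 2's cutoffs used in both, an alternative added after the data were seen, 15 cells of suffix 1 entered the gate. The ratios were then 3.38 for Nupr1 (2.25 to 5.34), 3.30 for Sult1a1 (2.48 to 4.48), 2.36 for Trim47 (1.67 to 3.47), 2.28 for Gda (1.38 to 4.10) and 1.78 for Clu (1.07 to 3.19), which left 2 genes. Every ratio of this paragraph stayed above 1, and whether 1 tag count stands for the same amount of protein in both libraries was not tested.

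Outside the gate the 5 genes parted in 1 of the other 3 gates. In the CD150-low CD48-high gate, which held 912 cells of suffix 1 and 1615 of suffix 2, suffix 2 was 35.4 times suffix 1 for Nupr1 (20.1 to 68.8), 9.10 times for Sult1a1 (7.28 to 11.5), 6.49 times for Gda (4.57 to 9.51) and 2.25 times for Trim47 (1.98 to 2.57). For Clu it was 0.793 times (0.584 to 1.08), an interval that holds 1. When Dntt cells were taken out of this gate (559 and 1283 cells remained), Clu was at 1.45 (0.793 to 2.43) and 2.62 CPM (2.00 to 3.37). The order of the levels was then the other way, with intervals that overlapped. The 6 plasma and B cell genes summed to 520 CPM there in suffix 1 and 5700 in suffix 2, and their part was not tested. In the CD150-high CD48-high gate all 5 were above 5 times, from 5.61 for Trim47 (4.94 to 6.40) to 35.7 for Nupr1 (26.7 to 48.7), with Clu at 31.7 (19.3 to 56.0). In that gate the 5 megakaryocyte genes were at 92.2 CPM in suffix 1 and 327 in suffix 2, and the 6 cycling genes at 1027 and 261 CPM. In the CD150-low CD48-low gate the ratios were 4.31 for Trim47 (3.56 to 5.24) to 35.0 for Nupr1 (20.3 to 66.1), with Clu at 19.3 (5.04 to 164). There the 6 plasma and B cell genes were at 7371 CPM in suffix 1 and 96.2 in suffix 2, and the 5 erythroid genes at 0.396 (1 UMI) and 110 CPM. The part of these cell types in the ratios of both gates was not tested.

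**Figure D3:**
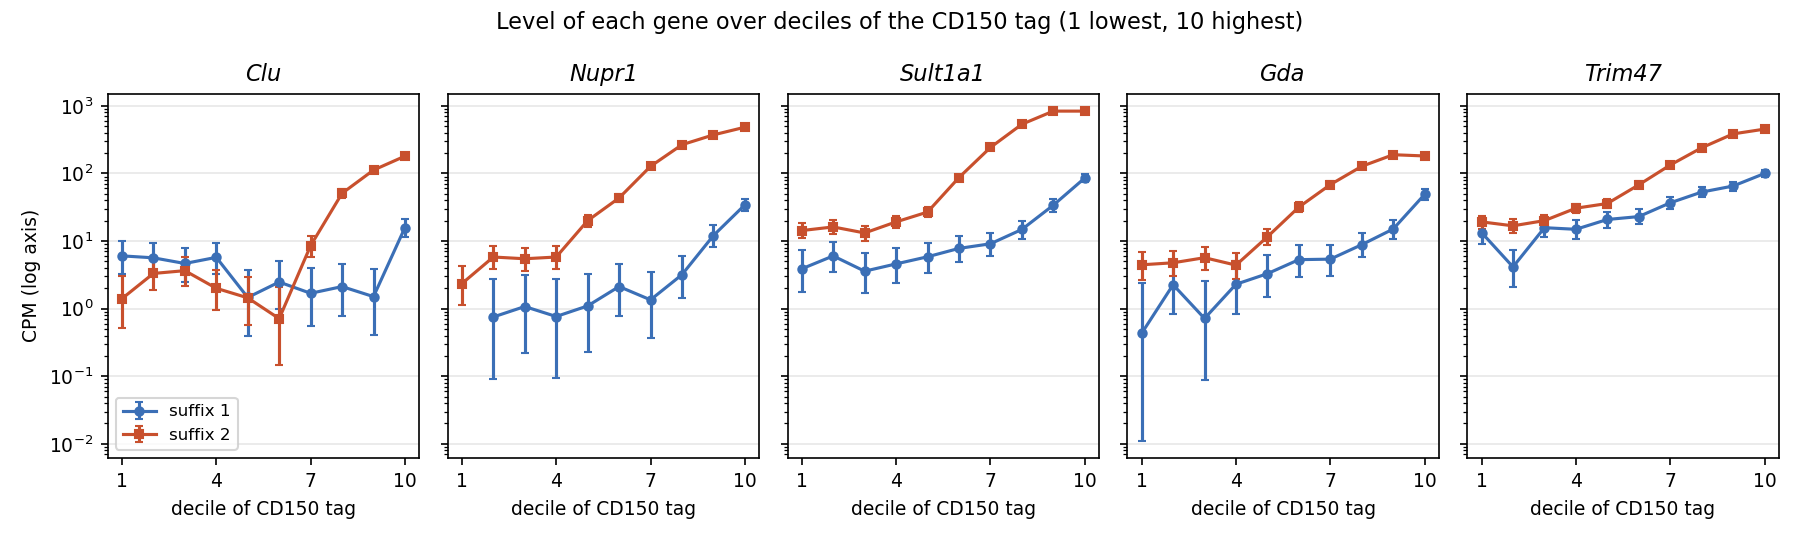
CPM (log axis) of each gene over deciles of cells ordered by CD150 tag within each suffix, with exact 95% Poisson intervals; deciles with 0 UMIs are left out. In suffix 2 Clu stays under 9 CPM up to decile 7 and reaches 180 in decile 10, and the other 4 genes rise from lower deciles.

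Over deciles of the CD150 tag the genes rose at different points. In suffix 2 Clu was at 0.711 to 8.54 CPM in deciles 1 to 7, at 50.8 in decile 8 and 112 in decile 9, and at 180 CPM in decile 10. Nupr1 in suffix 2 was at 43.4 CPM in decile 6, 127 in decile 7 and 482 in decile 10. Sult1a1 and Gda did not differ beyond counting error between decile 9 and decile 10 (835 and 835 CPM for Sult1a1, 189 and 181 CPM for Gda). In suffix 1 Clu was at 4.65 to 6.03 CPM in deciles 1 to 4, at 1.46 to 2.47 in deciles 5 to 9 and at 15.8 CPM in decile 10. Trim47 in suffix 1 rose over a wider range, from 23.0 CPM at decile 6 to 99.7 at decile 10. The median CD150 tag count was 502 in decile 10 of suffix 1, between 408 in decile 8 and 713 in decile 9 of suffix 2. In that decile of suffix 1 Sult1a1 was at 85.4 CPM, against 534 and 835 CPM in deciles 8 and 9 of suffix 2. In the same order Clu was at 15.8, 50.8 and 112, Nupr1 at 34.3, 266 and 372, Gda at 48.9, 127 and 189 and Trim47 at 99.7, 239 and 384 CPM. The CD48 tag was not matched, with medians of 213, 42 and 29.

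**Figure D4:**
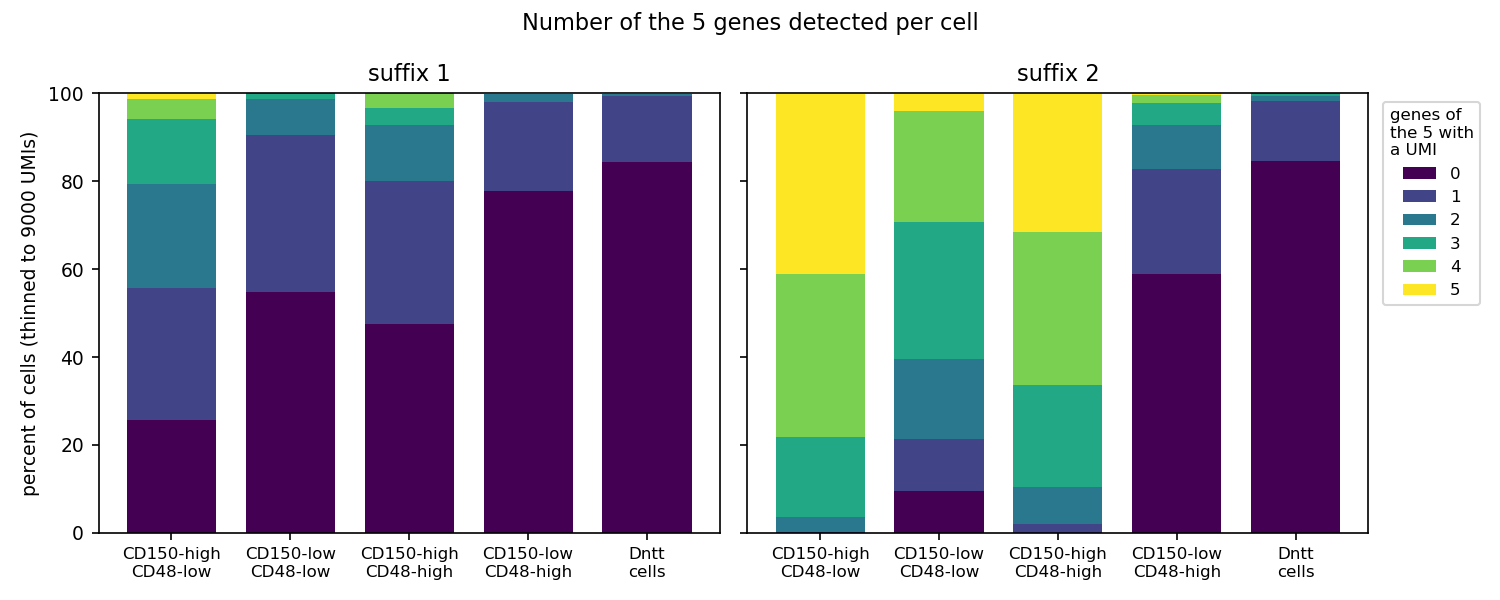
Percent of cells, each thinned to 9000 UMIs, with a UMI of 0 to 5 of the genes, by gate and in cells with at least 3 Dntt UMIs, for suffix 1 (left) and suffix 2 (right). In the CD150-high CD48-low gate, 25.6% of cells in suffix 1 and 0% in suffix 2 had none of the 5, and 1.28% and 41.0% had all 5.

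The difference between the suffixes was also read per cell at equal depth. Each cell was thinned to 9000 UMIs, which left out 16 gate cells of suffix 1 and 20 of suffix 2 that were shallower. A UMI of Clu was found in 9.62% of gate cells in suffix 1 (5.48 to 15.4%) and 61.4% in suffix 2 (56.2 to 66.5%), against 7.51% and 4.85% of Dntt cells. The share for Nupr1 was 18.6% in suffix 1 and 88.7% in suffix 2, against 0.536% and 1.52% of Dntt cells. In each gene more gate cells of suffix 2 than of suffix 1 held a UMI. For Sult1a1 it was 34.0% and 98.3%, against 1.61% and 5.15% of Dntt cells. The share for Gda was 26.9% and 75.5%, against 0.804% and 0 of 330 Dntt cells, which allows up to 0.909%. Trim47 was found in 57.1% and 91.5% of gate cells, against 5.63% and 6.36% of Dntt cells. The share of Clu in gate cells of suffix 1 was near that of Dntt cells, which carried Clu themselves, and the other shares stood above theirs. In the other gates of suffix 1 a Clu UMI was found in 4.21% of CD150-low CD48-high cells (1.69% without Dntt cells), 0.971% of CD150-high CD48-high cells and 0 of 170 CD150-low CD48-low cells (which allows up to 1.76%). Without thinning the gate shares were 12.2% and 69.7% for Clu, 23.8% and 93.0% for Nupr1, 40.1% and 99.5% for Sult1a1, 36.6% and 86.4% for Gda and 68.6% and 96.1% for Trim47, at median depths of 12917 and 13477 UMIs, against 21223 and 22206 in Dntt cells.

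Of 156 thinned gate cells in suffix 1, 40 had none of the 5 genes and 2 had all 5. Of 363 in suffix 2, 0 had none, which allows a share of up to 0.826%, and 149 had all 5. Among the cells of a gate the genes were only loosely related. Spearman's rho over the 10 pairs ran from 0.106 to 0.324 in suffix 1 (median 0.178, 156 cells) and from -0.06 to 0.165 in suffix 2 (median 0.115, 363 cells), and sparse counts in cells of 1 library limit what such values can show. In suffix 1, Clu and Sult1a1 shared 12 cells, where the product of their shares gives 5.10. This pair had the highest rho of the 10 in suffix 1 and the lowest in suffix 2, where 220 cells were shared and the product gives 219.

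**Figure D5:**
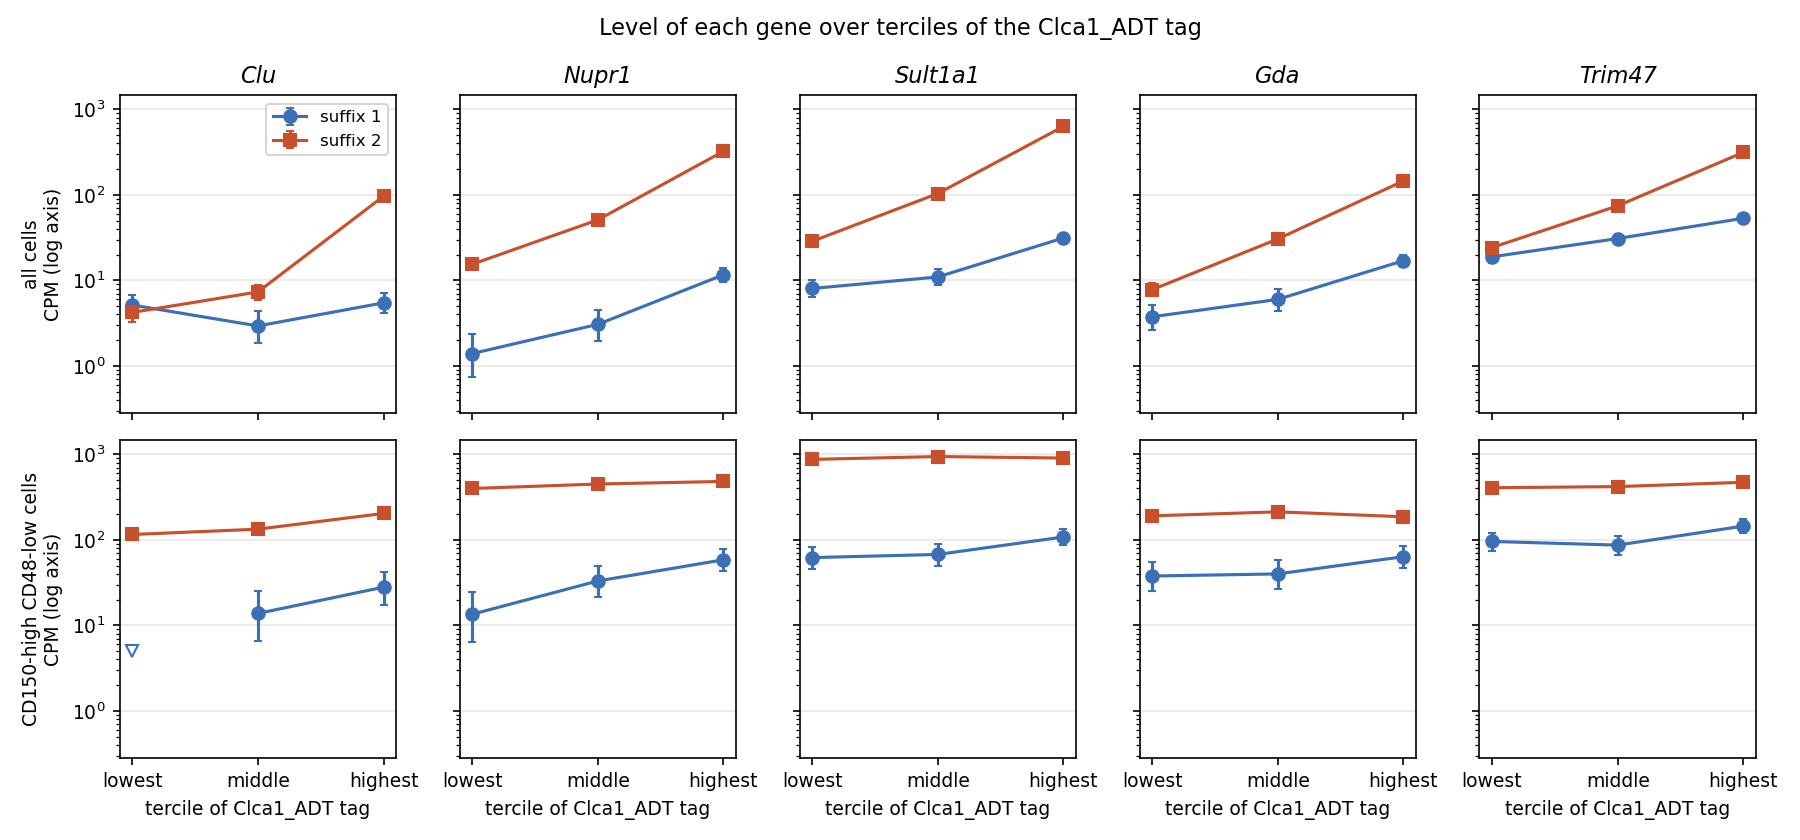
CPM (log axis) over terciles (3 parts by rank) of the Clca1_ADT tag, for all cells (top row) and for CD150-high CD48-low cells with terciles cut among them (bottom row), with exact 95% Poisson intervals; the open triangle is the upper limit of a level with 0 UMIs. In suffix 2 the top tercile of all cells is 13.0 to 22.9 times the bottom tercile, and inside the gate of suffix 2 it is 0.975 to 1.76 times the bottom tercile.

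The Clca1_ADT tag reports CLCA3A1, whose gene the study describes as induced by TAZ, a transcriptional co-activator encoded by Wwtr1. Terciles of the tag were cut at 5 and 15 tags per cell in suffix 1 and at 12 and 74 in suffix 2. In suffix 2 all 5 genes were higher in the top than in the bottom tercile, by 22.9 times for Clu (18.0 to 29.5), 22.1 for Sult1a1 (20.1 to 24.3), 21.0 for Nupr1 (18.5 to 23.9), 18.7 for Gda (15.6 to 22.5) and 13.0 for Trim47 (11.7 to 14.4). In suffix 1 the ratio was 8.35 for Nupr1 (4.69 to 16.1), 4.53 for Gda (3.13 to 6.72), 3.90 for Sult1a1 (3.02 to 5.09) and 2.82 for Trim47 (2.37 to 3.36), and 1.06 for Clu (0.706 to 1.60). Thus 4 genes in suffix 1 and 5 in suffix 2 had an interval above 2, as did 0.614% and 7.42% of all genes tested.

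Clu in suffix 1 was at 5.14 CPM in the bottom, 2.93 in the middle and 5.46 CPM in the top tercile, and the bottom and the top came from different cells. In the CD150-low CD48-high gate it was at 6.58 CPM in the bottom tercile and 1.62 in the top tercile, a ratio of 0.247 (0.101 to 0.528). In the CD150-high CD48-low gate all 32 UMIs lay in the top tercile of the tag, in 21 of 104 cells, with 0 UMIs in 35 bottom-tercile and 33 middle-tercile cells. Without Dntt cells the ratio of Clu over all cells of suffix 1 was 3.62 (1.69 to 8.88), and that of Trim47 was 1.93 (1.60 to 2.32), so that 3 genes passed there. With percentiles over both suffixes the ratio of Clu in suffix 1 was 2.04 (1.32 to 3.13).

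The terciles held different shares of stem cell gate cells. In suffix 1 the gate made up 6.32% of the bottom and 21.2% of the top tercile, and in suffix 2 it made up 0.806% and 40.9%. In the CD150-low CD48-high gate of suffix 2, with terciles of all cells, the ratio was 25.7 for Nupr1 (20.2 to 33.1) and 14.6 for Sult1a1 (12.5 to 17.0). There Gda was at 13.0 (9.70 to 17.6), Trim47 at 6.95 (5.91 to 8.17) and Clu at 3.22 (2.08 to 4.94). In suffix 1 the ratios in that gate ran from 0.247 for Clu (0.101 to 0.528) to 4.97 for Nupr1 (0.946 to 49.0). When terciles were cut inside the CD150-high CD48-low gate, the ratios of all 5 genes in suffix 2 and of all but Clu in suffix 1 were nearer to 1 than over all cells. In suffix 2 the ratio was 1.76 for Clu (1.48 to 2.11), 1.21 for Nupr1 (1.09 to 1.34), 1.16 for Trim47 (1.05 to 1.28), 1.04 for Sult1a1 (0.965 to 1.11) and 0.975 for Gda (0.834 to 1.14), and 0 of the 5 intervals lay above 2 (0.0287% of 10460 genes). The intervals of Sult1a1 and Gda held 1. The terciles cut inside the gate spanned 0 to 159, 162 to 262 and 263 to 938 tags in suffix 2. In suffix 1 they spanned 0 to 12, 13 to 54 and 55 to 336 tags, so the suffixes were compared over unlike ranges. The top tercile of all cells of suffix 2 began at 75 tags and held 339 of the 383 gate cells.

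In suffix 1, 2 of the 5 passed. Nupr1 was 4.33 times higher in the top tercile (2.16 to 9.63), from 13.5 CPM in the bottom to 58.5 CPM in the top tercile. Clu had 22 UMIs in the 57 cells of the top tercile and 0 in the 60 cells of the bottom tercile, at least 5.16-fold higher by the lower end of the exact interval (6.91-fold with 3 counts as the floor over the bottom tercile). The ratios were 1.74 for Sult1a1 (1.20 to 2.55), 1.68 for Gda (1.04 to 2.78) and 1.51 for Trim47 (1.12 to 2.06). The background was 0.113% of 8886 genes. The median CD150 tag count rose over the same terciles, from 113 to 443 in suffix 1 and from 685 to 906.5 in suffix 2. Tag counts listed as unmapped, which belong to no antibody, rose as well, from a median of 28 to 39 per cell in suffix 1 and from 30 to 52 in suffix 2. Over thinned gate cells Clu had a Spearman rho with these unmapped counts of 0.378 in suffix 1 (156 cells) and 0.239 in suffix 2 (363 cells), against 0.279 and 0.151 with Clca1_ADT. With the CD150 tag it was 0.392 and 0.236. In suffix 1 Nupr1 had 0.193 with unmapped counts and 0.348 with Clca1_ADT, Gda 0.122 and 0.241, and Trim47 0.107 and 0.187. Sult1a1 had the order of Clu there (0.232 and 0.119). In suffix 2 both values of these genes lay between -0.0218 and 0.102. The part of the CD150 tag and of the amount of tags per cell in the tercile ratios was not tested. The Clca3a1 transcript itself was 2.09 times higher in the top tercile inside the gate of suffix 2 (1.65 to 2.68) and 13.2 times in suffix 1 (2.01 to 558, from 14 UMIs against 1). It was also 13.0 times higher in the gate of suffix 2 than of suffix 1 (7.92 to 22.9).

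The pattern of each gene was compared with that of 10023 genes over 21 groups of gate, tag tercile and suffix with at least 20 cells, 12 of suffix 1 and 9 of suffix 2. Groups of a suffix share a library, so the correlations of log2(CPM + 10) are descriptions. Sult1a1 and Gda were each other's closest gene (Pearson r = 0.985), and Sult1a1 was also the closest to Nupr1 (0.977). Clec1a, a C-type lectin receptor, stood next for Sult1a1 (0.984), and Vmp1 (0.971) and Wwtr1 (0.966) next for Nupr1. Uba7 (0.978) and Clec1a (0.978) followed for Gda. Trim47 was closest to Npdc1 (0.989), Nt5c3 (0.982) and Tgm2, transglutaminase 2 (0.975). Clu was closest to Matn4, an extracellular matrix protein (0.957), Sbspon (0.955) and Klrb1c (0.954), and its r with the other 4 genes was 0.740 to 0.816. The pooled values span the difference in level between the suffixes. Within suffix 1 alone Clu's r was 0.890 with Matn4, 0.730 with Sbspon and 0.502 with Klrb1c. Clu's r with the 4 fell there to between 0.0796 and 0.528, while those among the 4 were 0.761 to 0.959. Within suffix 2 Clu's r was 0.745 to 0.782 with the 4 and 0.977 with Klrb1c. Nupr1's r was 0.746 with Vmp1 and 0.827 with Wwtr1 within suffix 1, and 0.972 and 0.951 within suffix 2. Over single thinned gate cells the Spearman rho of Nupr1 with Wwtr1 was -0.0174 in suffix 1 and 0.0273 in suffix 2. Wwtr1 was sparse, with 30 UMIs in all tagged cells of suffix 1 and 369 in those of suffix 2.

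Lists of genes near the 5 in role were counted by the same rule. The lists were chosen with earlier results of these data known, so their counts are a description and are not read against the shares of all genes. Slamf1 of the stem cell list encodes CD150, whose tag cut the gate. Of 10 stem cell genes 7 passed the rule for marking the gate in both suffixes, as 1.37% of all genes did, with a median ratio of 3.69 in suffix 1 and 3.00 in suffix 2, where the median of all genes was 0.988 and 0.977. The highest were Slamf1 (8.72 and 7.27), Hoxb5 (7.16 and 4.50) and Mllt3 (4.20 and 4.57), and the lowest were Hlf (1.07 and 1.52), Meis1 (1.35 and 1.34) and Mecom (2.22 and 2.74). In the gate, suffix 2 over suffix 1 had an interval above 2 for 1 of these 10, Slamf1, where 1.18% of all genes had one, and Hoxb5 (2.39, from 1.69) and Procr (2.14, from 1.88) had ratios above 2 with intervals that reached below it.

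Of 10 TAZ-linked and platelet-type stem cell genes, 9 of them measured in suffix 1, 8 passed in both suffixes, against 1.37% of all genes, among them Vwf, von Willebrand factor (8.05 and 7.11), Wwtr1 (6.38 and 4.43) and Ehd3 (4.51 and 6.28). The lowest ratios of this list were those of Selp, P-selectin (1.54 and 2.82), Plscr2 (4.83 and 2.23) and Aldh1a1 (5.61 and 2.63). In the gate, 9 of the 10 had an interval above 2 in suffix 2 over suffix 1, against 1.18% of all genes, with a median ratio of 5.48, from 3.07 for Aldh1a1 (2.52 to 3.78) to 7.57 for Plscr2 (5.48 to 10.7) among those just named. The median over all genes tested in the gate was 0.928. As this list too was chosen with earlier results of these data known, nothing is read from its counts.

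In the lists nearest the 5 in function 0 or 1 gene passed in both suffixes, where 1.37% of all genes did, and nothing is read from such counts. Of 9 measured sulfotransferases and other conjugating enzymes 0 passed in either suffix, with the highest ratios those of Sult2b1, a sulfotransferase of sterols (1.94 and 2.46, the latter with an interval of 1.36 to 4.27), and Gstm5 (1.68 and 2.11), and Mgst1, a glutathione transferase, was at 0.932 and 0.337. Of 11 measured genes of purine salvage and breakdown 1 passed in both, Xdh (8.61 and 6.31), xanthine dehydrogenase, which acts on the xanthine that Gda makes. Ampd3, AMP deaminase, was at 3.05 (1.51 to 5.73) and 4.00 (3.03 to 5.26), and Impdh1 (0.454 and 0.443) and Ada, adenosine deaminase (0.523 and 0.374), were the lowest. Xdh in the gate was 3.34 times higher in suffix 2 (2.19 to 5.28).

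Of 13 measured stress-response genes 1 passed in both, Trib3 (3.03 and 3.83), a pseudokinase induced by amino acid and ER stress. Ddit3, which encodes CHOP, was at 2.00 and 1.60, and Atf4, an upstream factor of both, at 0.936 and 0.951. Of the complement and chaperone list, with 8 genes measured in suffix 1 and 10 in suffix 2, Apoe passed in both (3.91 and 4.04), and Cd55 was at 2.71 (1.87 to 3.83) and 3.11 (2.62 to 3.68). Vldlr was at 0.442 and 0.394, and Cfp, properdin, at 0.601 and 0.157. Of 15 TRIM genes 0 passed in either suffix, with Trim8 (1.44 and 1.47), Trim12a (1.35 and 1.15) and Trim65 (1.21 and 1.25) the highest and Trim59 (0.511 and 0.224) the lowest. Apoe was 2.43 times higher in the gate of suffix 2 (2.28 to 2.60), and Trim65 1.03 times (0.732 to 1.47).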

How the data were processed

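CITE-Seq was run on sorted LSK cells from young and old C57BL/6JRj mice, 1 library per age. The authors deposited 1 matrix of UMI counts per gene and cell for both libraries, made with Cell Ranger 3.1.0 on mm10/GRCm38 per the submitters' processing notes and joined with its aggregation step, which can equalize depth between libraries, so depths before it are not known here. Tag values, which the authors counted with CITE-seq-Count and deposited on a log10 scale, were turned back into whole tag counts, and an infinite negative value was read as 0. Of 4685 barcodes with tags 4573 were among the 4688 cells of the matrix. The number of per-sample columns left unused was 0.

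Kept cells (under 10% mitochondrial UMIs, over 1500 genes; 4068) held 27345371 UMIs in suffix 1 and 44021962 in suffix 2. Doublets were called with scrublet in scanpy 1.11.5 (expected rate 0.06) in 5 kept cells of suffix 1 (0.328%) and 32 of suffix 2 (1.26%), 0 of them in the CD150-high CD48-low gate, and were kept. UMIs were summed per gate and suffix and divided by the summed UMIs of all genes. Levels have exact Poisson, shares Clopper-Pearson and ratios exact conditional binomial 95% intervals (scipy 1.17.1), and the limit beside a share of 0 is 3 counts of the total. The ratio, its interval and the call at a ratio of 2 were tested on simulated counts. A gene marked a gate, or was mainly in 1 suffix, when the interval of its ratio lay above 2, and genes with at least 20 UMIs in the cells compared were tested. Python 3.11.15, numpy 2.4.6, pandas 2.3.3 and matplotlib 3.10.9 were used.

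Libraries came from barcode suffixes and gates from tags. Dntt, cycling and marker-rich cells were taken by their transcripts. Named genes were the 5, genes from among the 3 highest and 3 lowest gate ratios of each list (at least 20 UMIs per suffix), the 3 genes closest in pattern (mean of at least 5 CPM) and the transcripts of the tags. Other names were chosen after their values were seen. The genes and lists were chosen with earlier results of these data known. Alternatives changed the cell filter, tag cutoffs and scale, scaling of transcripts, doublets, cycling cells and fold. The exact intervals take UMIs as independent and hold no spread between animals. Which single genes of the plasma and B cell and of the erythroid list were at 0 is not reported here.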

Additional observations from a re-analysis of the deposited data

Results flagged for a closer look

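A signal was found in kept cells that had no tag values and so entered no gate, 27 cells of suffix 1 and 55 of suffix 2. In suffix 1 Nupr1 and Trim47 were each at 14.7 CPM there, Sult1a1 at 29.4 and Gda at 25.7 CPM. In suffix 2 Nupr1 was at 17.0, Sult1a1 at 107, Gda at 47.7 and Trim47 at 74.9 CPM. Clu had 0 UMIs in both, which allows a share of cells with a Clu UMI of up to 11.1% in suffix 1 and 5.45% in suffix 2 (3 counts of the cells). The Nupr1 UMIs of suffix 1 all came from 1 cell.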

How the results depend on the processing

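Of 90 counts of genes passing a rule under other settings, 82 were within 1.5 times the reported count and 8 were not. With cells under 5% mitochondrial UMIs and over 2500 genes, which left 20 gate cells in suffix 1 and 37 in suffix 2, 2 genes marked the gate in suffix 1 and in both suffixes. Under that filter 0 genes had an interval above 2 for the top over the bottom Clca1_ADT tercile of suffix 1. The ratios there were 9.54 for Gda (1.36 to 414), 7.15 for Sult1a1 (1.66 to 64.5) and 4.96 for Trim47 (1.87 to 16.5), above the reported ones with wider intervals. Tags as centred log ratios left 2 genes with an interval above 2 for the top over the bottom tercile of suffix 1. By the same rule terciles cut inside the gate left 2 in suffix 1 and 0 in suffix 2. The count mainly in 1 suffix was 3 with percentiles over both suffixes and 2 with suffix 2's cutoffs, the latter added after the data were seen. The cause was not tested. The tercile ratio of Gda in suffix 2 turned to 0.975 inside the gate. Of 139 gate ratios under other settings 0 were below 1 (1.53 to 36.6), as were 0 of 69 suffix ratios (1.78 to 29.3). Their sizes were less stable. Of the gate ratios 85, of the suffix ratios 29 and of 108 tercile ratios 52 lay outside the interval of the reported ratio, besides the Gda ratio that turned. Of 108 tercile ratios 2 were below 1, the other being Clu in suffix 1 under the stricter filter (0.159). Under that filter the gate and suffix ratios of Clu and the tercile ratio of Nupr1 in suffix 1 had 0 UMIs on 1 side and no value, nor did the tercile ratio of Clu inside the gate of suffix 1. No paired analysis was possible because each age had 1 library and no test was run. Leaving out a replicate was not possible for the same reason. Clu had 32 UMIs in the gate of suffix 1, the fewest of the 5.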

Other observations

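Outside the tag gates, the 5 genes were also read in the 5% of cells of each suffix with the highest summed level of a lineage's markers. In the lymphoid-primed cells Clu was at 11.6 CPM in suffix 1 (19 UMIs in 75 cells) and 7.43 in suffix 2 (22 UMIs in 125 cells), while Gda had 0 UMIs in both. In the erythroid cells of suffix 2, 29 of 125 of which lay in the CD150-high CD48-low gate, Sult1a1 was at 426, Trim47 at 222, Nupr1 at 215, Gda at 89.0 and Clu at 66.0 CPM. In the megakaryocyte cells of suffix 2, with 8 of 125 in the gate, Sult1a1 was at 188, Nupr1 at 153, Trim47 at 124, Gda at 63.1 and Clu at 38.2 CPM. In suffix 1 the highest value in either set was 51.9 CPM, for Trim47 in the megakaryocyte cells.

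Cells that failed the cell filter, 172 of suffix 1 and 448 of suffix 2, also held the genes. In suffix 2 Sult1a1 was at 359, Trim47 at 252, Nupr1 at 164, Gda at 112 and Clu at 54.2 CPM, and in suffix 1 the 5 ran from 3.39 CPM for Clu and Nupr1 to 58.7 CPM for Trim47.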
